A study of Drosophila melanogaster with 12 samples.

Results

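The Fat and Hippo growth pathway genes examined here are 10 genes of Drosophila melanogaster, out of 13935 protein-coding genes on the main chromosome arms. They were chosen by symbol, with earlier results of these data known, and each was taken with 10 kb on both sides. Of these, 5 were grouped as the upstream part (ft, ds, fj, d and ex) and 5 as the core (kibra, Mer, hpo, wts and yki). The core is named for the kinases Hippo and Warts. The genes kibra and Mer, whose products work beside Expanded, were placed in it by this grouping. The gene d carries the symbol dachs in the gene table used, and was matched through its listed synonym. Positions are those of Release 6, and the build named in the submitters' processing notes is BDGP6.

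Ubx is the Hox transcription factor that gives the haltere, the small balancing organ behind the wing, its identity. The series holds chromatin immunoprecipitation sequencing (ChIP-seq) of imaginal discs, the larval epithelia that form the adult appendages, made with a polyclonal antibody to the N-terminal part of Ubx. Its 12 samples fall into 4 groups of 3 biological replicates: haltere disc Ubx ChIP, haltere disc input, wing disc Ubx ChIP and wing disc input. All come from wild-type Canton S larvae of the third instar at the wandering stage, so no allele, transgene or treatment separates them. Peak lists of the 3 haltere ChIP libraries and 1 consensus list were used. Wing and input libraries have no list among those used, so haltere is not compared with wing below. Fold enrichment is the peak caller's ratio over its background, and whether an input library served as that background is not given in the sources used here.

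The Fat and Hippo pathway limits the growth of the wing and haltere discs. Fat (ft) is a very large cadherin that acts as a receptor, Dachsous (ds) is the cadherin that serves as its ligand, and Fj is a Golgi kinase that modifies the extracellular domains of both. The unconventional myosin Dachs (d) acts below Fat and promotes growth, whereas Expanded (ex) is a FERM-domain protein at the cell junction that activates the kinase cascade. Kibra and Merlin (Mer) work beside Expanded. The kinase Hippo (hpo) activates the kinase Warts (wts), which phosphorylates the coactivator Yorkie (yki) and keeps it out of the nucleus. Genes such as ex, kibra and fj are also known as transcriptional targets of Yorkie, so that part of the pathway feeds back on itself.

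Ubx peaks were most numerous at ds, ex and fj, followed by wts with 3, 2 and 4 peaks in replicates 1, 2 and 3. Few or none lay at ft, d, kibra, Mer, hpo and yki. The upstream genes held 24, 21 and 39 peaks in replicates 1, 2 and 3, a mean of 28.0 ± 9.64 (SD, n = 3), and the core genes held 5, 3 and 6, a mean of 4.67 ± 1.53. The lowest upstream count was above the highest core count, with both parts counted in the same 3 libraries. Single genes did overlap between the parts: the upstream genes ft and d each had fewer peaks than the core gene wts in every library. The upstream windows are also longer, 241245 bp in all against 152744 bp for the core. A peak lay at 3, 4 and 5 of the 5 upstream genes and at 2, 2 and 3 of the 5 core genes, against 28.9, 21.3 and 32.0% of all protein-coding genes in replicates 1, 2 and 3. Per 10 kb of window the upstream genes had 1.16 ± 0.400 peaks and the core genes 0.306 ± 0.100 (SD, n = 3). The files hold a single group of 3 libraries and genes are not replicates, so this difference is described and was not tested.

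**Figure D1:**
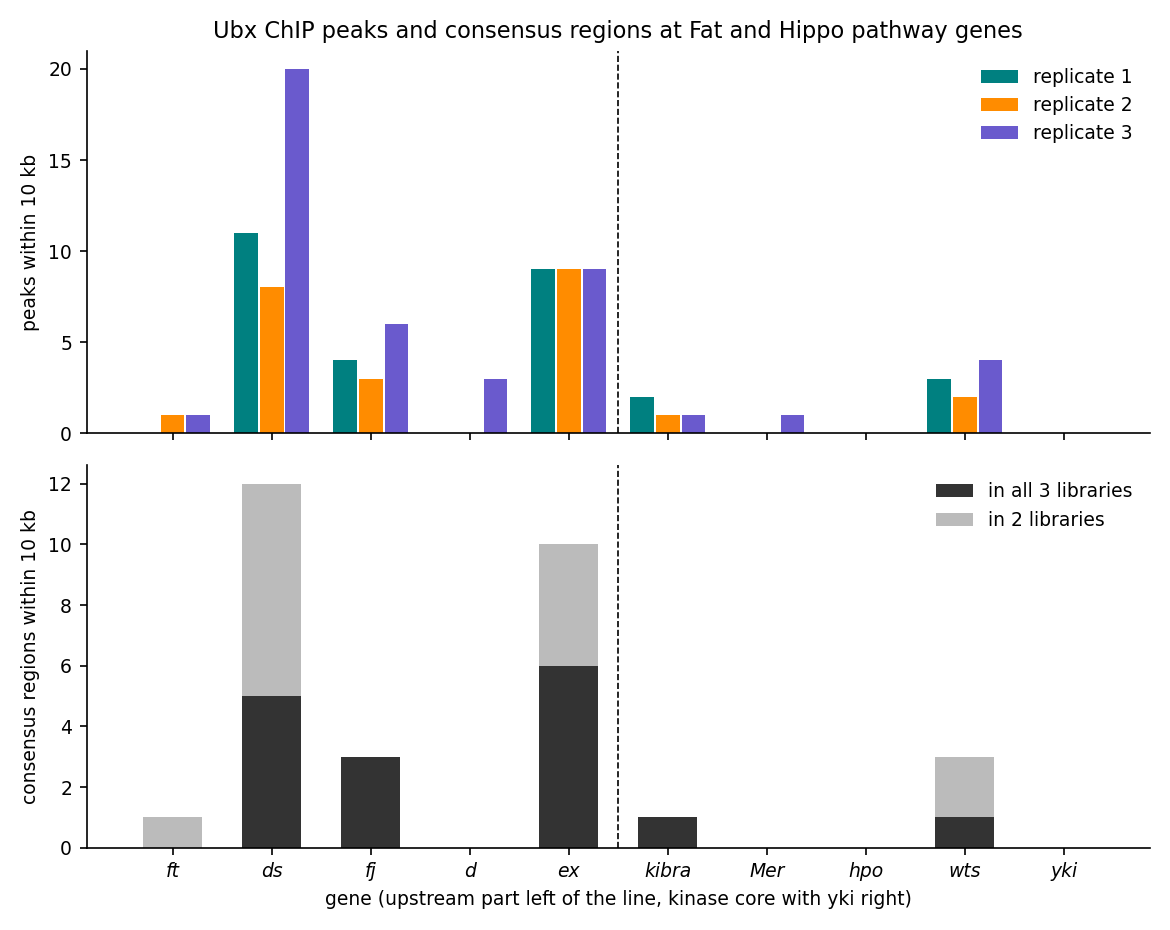
Number of Ubx ChIP peaks called in each haltere library (top, bars coloured by replicate) and number of consensus regions (bottom, split by the number of libraries that overlap them) within 10 kb of each gene, with the upstream part left of the dashed line. The gene ex has 9 peaks in each library, ds has 8 to 20, and hpo and yki have none.

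The consensus list, which keeps stretches covered by at least 2 libraries, gave the same order. It placed 26 regions at the upstream genes and 4 at the core genes, and 14 and 2 of these were overlapped by all 3 libraries. A consensus region lay at 4 upstream genes and at 2 core genes, 6 of the 10 in all. A region in all 3 libraries lay at 3 upstream genes and 2 core genes. Over all protein-coding genes treated the same way, 17.7% had a consensus region and 8.76% had a region in all 3 libraries. Long windows hold more regions: among the 1018 genes of at least 20 kb the shares were 39.6% and 22.5%, and ft, ds, d and kibra belong to that class.

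The difference in density between the parts rested largely on ds and ex, and the core regions in turn lay only at wts and kibra. Consensus regions numbered 1.08 per 10 kb at the upstream genes and 0.262 per 10 kb at the core genes. Pooled over the windows of all protein-coding genes the density was 0.173 per 10 kb, and 0.114 without the genes at the histone gene cluster on 2L. The upstream density lay above both values. The core density rests on 4 regions, 1 of them inside the neighbouring gene zfh1. It was 0.196 when only regions with the core gene as nearest were kept. The density over all genes was not recomputed that way, so the core is not called denser than genes in general. Without ex alone, the upstream genes had 16 regions, or 0.785 per 10 kb. The grouping matters here, since ex, if placed beside kibra and Mer, would bring its 10 regions to the core. That regrouping was not run. Without ds and ex, the remaining upstream genes had 4 regions, or 0.368 per 10 kb. With only the gene bodies counted, the densities were 0.920 for the upstream part and 0.569 for the core. The windows also differ in how many other protein-coding genes they touch: 0 for ds and 1 for fj, but 4 for ft, 8 for d, 6 for ex, 3 for kibra, 7 for Mer, 7 for hpo, 3 for wts and 9 for yki. The part of this crowding in the result was not tested.

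The gene ex, which codes for the junctional activator of the Hippo kinases, had the densest binding of the 10. Replicates 1, 2 and 3 each called 9 peaks there, and the consensus list held 10 regions, 6 of them in all 3 libraries and 4 in 2 libraries. This came to 2.67 regions per 10 kb of window and to 3.43 per 10 kb within the gene body (2L, 431227 to 448701). The 6 regions inside the gene span lay in a stretch of 3759 bp from 439018 to 442776, with gaps of 129 to 722 bp between neighbours. The other 4 lay below the lower-coordinate end of the gene, and 3 of them fell within 1143 bp, from 429434 to 430576. No region lay past the higher-coordinate end.

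The strongest region of the 16 in all 3 libraries, by mean percentile, lay outside ex on 2L, from 429957 to 430196, 1030 bp from the gene. Fold enrichment here is the authors' own value for a peak. At this region it was 7.81, 12.2 and 16.7 in replicates 1, 2 and 3. These values put it at percentiles 94.3, 99.7 and 99.9 of the 3 lists, at rank 164 of 2869, rank 8 of 2361 and rank 5 of 3859. By mean percentile it was the 22nd of the 927 regions that all 3 libraries overlap. The summits of the 3 peaks lay within 33 bp of each other, so the libraries placed the site at almost the same position.

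The next strongest region at ex lay inside the gene, from 441240 to 441614. In replicates 1, 2 and 3 its fold was 9.20, 7.60 and 10.5, at percentiles 97.7, 95.0 and 96.9, and it ranked 44th among the 927. Here replicate 1 gave the highest percentile, whereas it gave the lowest for the region outside the gene. Further along, the region from 442218 to 442432 had folds of 4.73, 4.72 and 7.67. The replicate 3 peak there also covers the neighbouring region from 442562 to 442776, where its summit lies, so the 7.67 is 1 value counted at both. The region from 439018 to 439430 had folds of 4.95, 4.70 and 4.82. The remaining regions in all 3 libraries lay at 427207 to 427427 and at 440735 to 440954, with mean percentiles of 64.0 and 60.2. The first of these was nearer to BBS8 (1885 bp) than to ex (3799 bp).

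The ligand gene ds had the most regions, spread over a much longer gene (2L, 640013 to 714983; 74971 bp). Its window held 11 peaks in replicate 1, 8 in replicate 2 and 20 in replicate 3. Replicate 3 thus called more there than the other 2 libraries together, and 9 of its 20 peaks overlapped no consensus region. The consensus list held 12 regions at ds, 5 in all 3 libraries, 4 in replicates 1 and 3, and 3 in replicates 2 and 3. Of the 12, 7 lay inside the gene, 2 below its lower-coordinate end and 3 above its higher-coordinate end. The density was 1.26 per 10 kb of window, 0.934 inside the gene and 2.50 in the flanks.

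Inside ds, 5 regions lay in a stretch of 3261 bp from 669015 to 672275, 29002 bp from the lower-coordinate end. The strongest region of the gene was in this stretch, from 671195 to 671551. In replicates 1, 2 and 3 its fold was 5.29, 7.67 and 8.97, at percentiles 74.3, 95.3 and 94.7. The 3 summits lay within 17 bp. The neighbouring region, from 671717 to 671865, had folds of 2.89, 4.29 and 8.97. In replicate 3 both regions come from the same peak, so the 8.97 there is 1 value counted at both, and the region itself stood at percentile 2.18 in replicate 1.

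A further region in all 3 libraries lay 5827 bp below ds, from 633537 to 634185, with folds of 6.53, 5.31 and 7.49. The gene CG2839 was slightly nearer to it, at 5336 bp. At the other end, 688 bp past ds, a weak region from 715672 to 715817 had folds of 3.57, 3.67 and 3.80, at percentiles 17.4, 35.6 and 30.2 of the lists. The region from 696944 to 697387 inside the gene was also weak, with folds of 3.29, 4.50 and 4.12. The mean percentiles of the regions in all 3 libraries ran from 27.7 to 88.1 at ds and from 60.2 to 98.0 at ex.

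**Figure D2:**
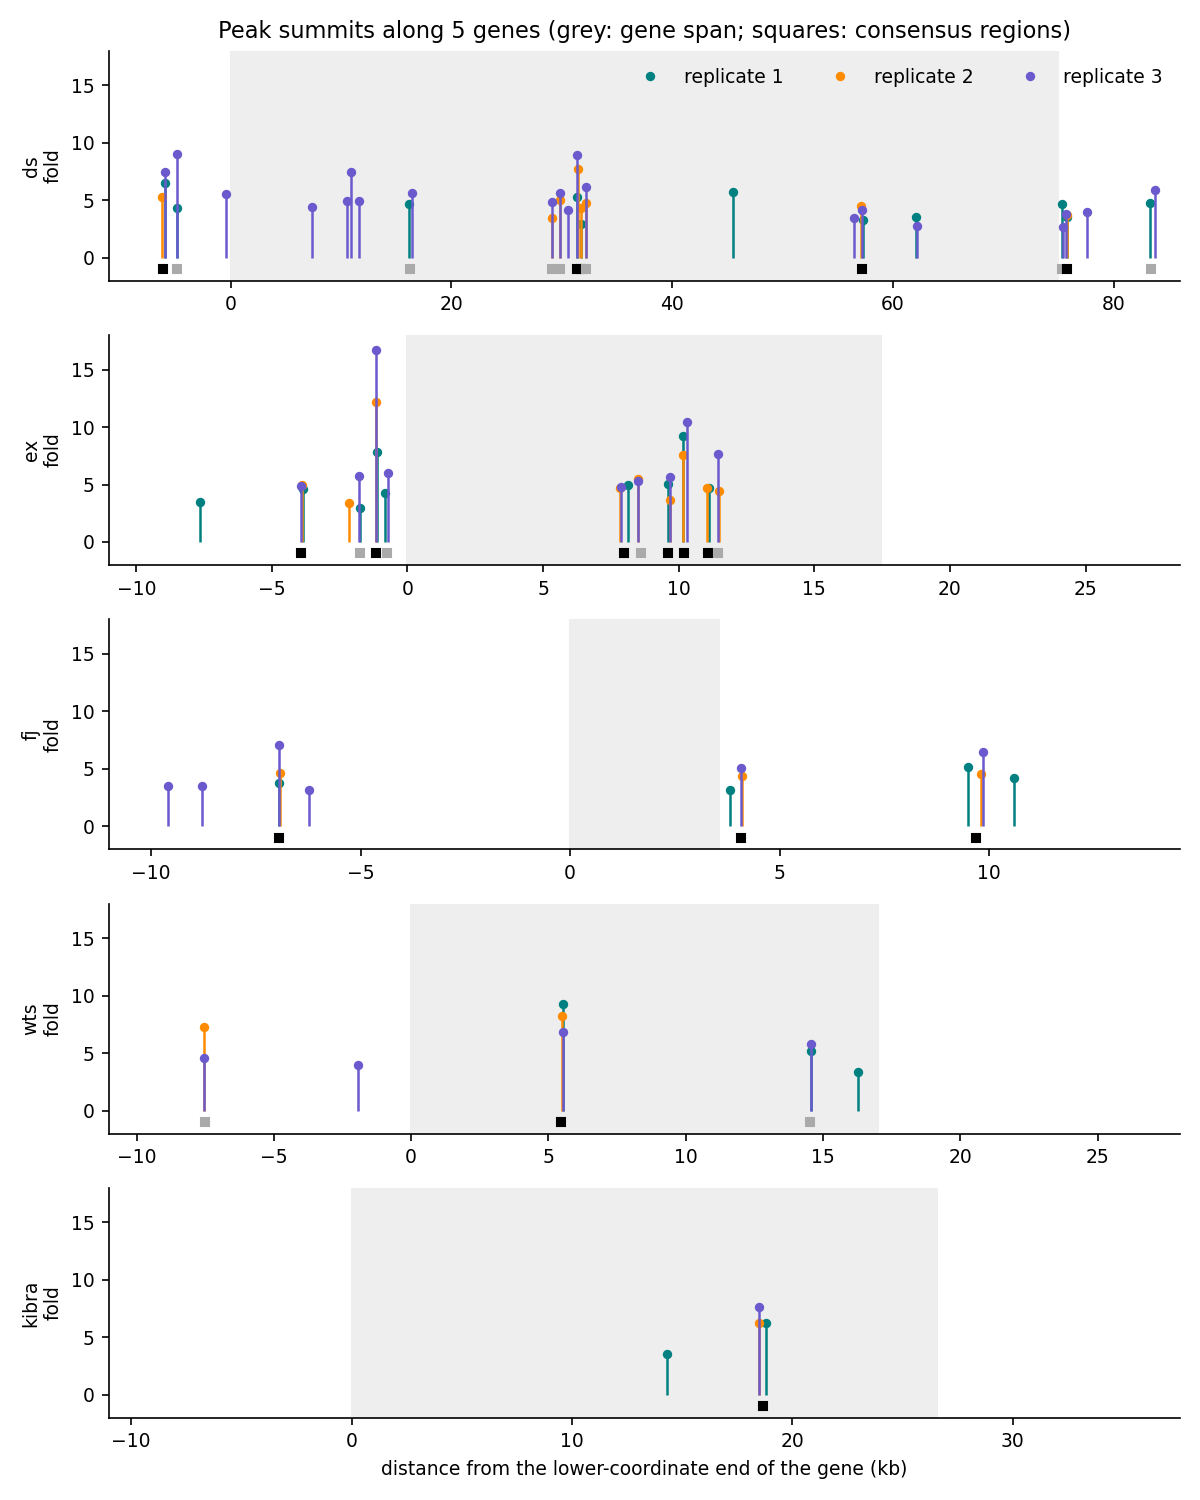
The authors' fold enrichment of each peak at its summit along ds, ex, fj, wts and kibra, with distance in kb from the lower-coordinate end of the gene, grey for the gene span, black squares for consensus regions in all 3 libraries and grey squares for those in 2. Peaks at ex form a group just below the gene, with folds up to 16.7, and a group inside it, whereas those at fj lie on both sides of the gene and those at kibra and wts are few.

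The gene fj, which codes for the Golgi kinase that tunes Fat and Dachsous, differed from ds and ex in having no region inside its body. The gene is short (3551 bp on 2R, 18232761 to 18236311). Replicates 1, 2 and 3 called 4, 3 and 6 peaks, and all 3 consensus regions were in all 3 libraries. The nearest lay 433 bp from the gene, from 18236745 to 18236928, with folds of 3.13, 4.39 and 5.10. In replicate 1 that peak was at percentile 4.67 of the list, in replicates 2 and 3 at 60.6 and 66.5. The strongest by mean percentile lay 5900 bp away, from 18242212 to 18242705, with folds of 5.15, 4.57 and 6.45. The third lay 6851 bp away on the other side, from 18225708 to 18225909, with folds of 3.74, 4.63 and 7.03, and was nearer to CG46388 (5655 bp).

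The receptor gene ft and the myosin gene d held almost nothing. At ft (2L, 4198404 to 4221796), replicate 1 called no peak and replicates 2 and 3 called 1 each, with folds of 3.15 and 5.08. They overlapped in a single consensus region from 4223596 to 4223733, 1799 bp outside ft and 916 bp from CG3702. At d (2L, 8466817 to 8488671), replicates 1 and 2 called no peak, and replicate 3 called 3 inside the gene with folds of 3.37, 2.93 and 4.83. None of these 3 was recovered in another library. The ligand and its receptor therefore differed, with 12 consensus regions at ds and 1 at ft. The window of ds is longer, and per 10 kb of window the densities were 1.26 and 0.230.

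In the core, wts and kibra were the genes with a consensus region, and each had 1 in all 3 libraries. The kinase gene wts (3R, 30789625 to 30806619) had 3, 2 and 4 peaks and 3 consensus regions. Its region in all 3 libraries lay inside the gene, from 30794957 to 30795240. In replicates 1, 2 and 3 its fold was 9.28, 8.20 and 6.84, at percentiles 97.8, 96.2 and 86.2, and the summits lay within 23 bp. It ranked 83rd among the 927 regions. A second region inside wts, from 30804108 to 30804223, was in replicates 1 and 3 with folds of 5.15 and 5.80. The third, from 30782012 to 30782188, was in replicates 2 and 3 with folds of 7.27 and 4.61 and lay inside the neighbouring gene zfh1, 7436 bp from wts.

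The single region at kibra, the gene for the scaffold that joins Merlin and Expanded, lay inside the gene (3R, 14697689 to 14724261) from 14716105 to 14716570. Its fold was 6.25, 6.22 and 7.65 in replicates 1, 2 and 3, at percentiles 86.9, 88.3 and 90.6. These 3 percentiles are close together, and the summits lay within 289 bp. Apart from it, replicate 1 alone called a weak peak in kibra with a fold of 3.58. At Mer (X, 19689697 to 19693500) the only peak came from replicate 3, 6250 bp from the gene, with a fold of 3.61 and a percentile of 23.6. The windows of hpo (2R, 19493996 to 19496856) and yki (2R, 24065975 to 24068485) were empty in all 3 libraries. Read depth is unknown, so an empty window says that no peak passed the authors' threshold there, not that Ubx was absent.

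The few core regions were not weak ones. The regions in all 3 libraries had a median of their mean percentiles of 64.6 at the upstream genes (14 regions) and of 91.0 at the core genes (2 regions). Over all 927 such regions of the list this median was 71.1. The median percentile of all peaks at the upstream genes was 58.6, 66.2 and 66.0 in replicates 1, 2 and 3, a mean of 63.6 ± 4.32, and at the core genes 70.8, 93.8 and 66.9, a mean of 77.2 ± 14.5 (SD, n = 3). The core medians rest on 5, 3 and 6 peaks and were higher in each library, though only slightly in replicate 3. The replicate 2 median of 93.8 is the value of the peak at the region inside zfh1. The core genes thus had fewer peaks than the upstream genes, and by fold the few they had did not rank lower. Ranked by q-value, the core median was higher in replicates 1 and 2. In replicate 3 it was slightly lower, at percentile 67.1 against 67.3 for the upstream genes.

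**Figure D3:**
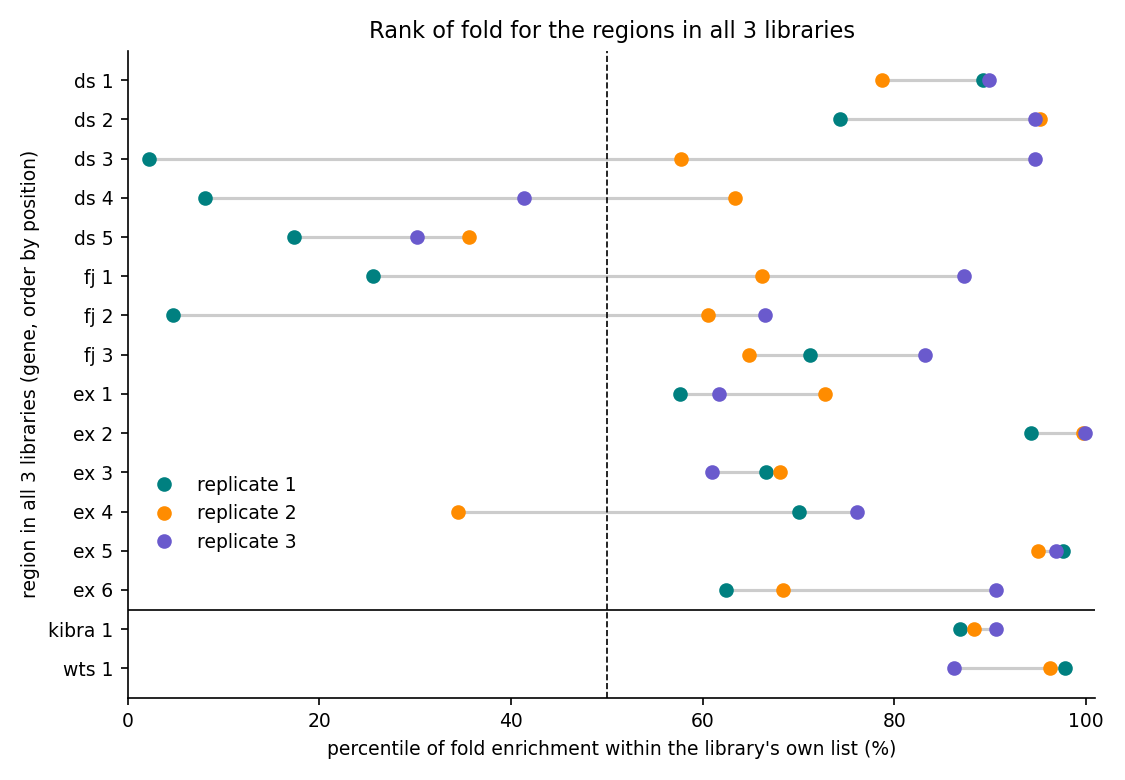
Percentile of fold enrichment within each library's own list for the 16 regions in all 3 libraries, numbered along each gene by position, with the upstream genes above the solid line and kibra and wts below it; the dashed line marks the middle of a list. The regions ex 2 and ex 5 and both core regions lie above percentile 86 in every library, whereas ds 3 and fj 2 are near the bottom of the replicate 1 list and above the middle in replicates 2 and 3. The replicate 3 value of ds 3 is that of a peak shared with ds 2, where its summit lies.

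The libraries contributed unequally. Peaks at the 10 genes made up 1.01% of the replicate 1 list (29 of 2869; 95% Wilson interval 0.705 to 1.45%), 1.02% of replicate 2 (24 of 2361; 0.684 to 1.51%) and 1.17% of replicate 3 (45 of 3859; 0.873 to 1.56%). These shares lay within each other's intervals, so replicate 3 had more peaks at the members about in proportion to its longer list. Of these peaks, 20.7% in replicate 1, 4.17% in replicate 2 and 37.8% in replicate 3 were overlapped in no other library, against 51.3, 26.1 and 46.6% of the whole lists. The 14 regions in 2 libraries split evenly, 7 in replicates 2 and 3 and 7 in replicates 1 and 3. None came from replicates 1 and 2 alone. In the whole list of 2171 regions these classes held 762, 415 and 67. All intervals cover counting error over peaks only, and peaks are not independent.

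Set against all genes, ds and ex had high numbers of regions per gene. Because the tandem histone gene cluster on 2L fills its windows with repeated regions, the 111 coding genes whose windows touch it were left out here, a choice made after the values were seen. Of the other 13824 genes, 12 (0.0868%) had at least 10 consensus regions: sbb with 24, SKIP with 14, Tet, ds and hth with 12, Ubx, jing, shn and tkv with 11, and ex, fz2 and osa with 10. The gene ex spans 17475 bp, and the other 11 span 30533 to 162297 bp. Among the 12806 genes shorter than 20 kb outside the cluster, ex was the only one with at least 10. Among the 1018 genes of at least 20 kb, 5 (0.491%) had at least the 12 of ds. Per window length ds was less far out: 241 genes (1.74%) were at least as dense as ds, 234 (1.69%) as fj and 31 (0.224%) as ex. With the histone genes included, 119 genes had at least 10 regions.

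By regions in all 3 libraries, 21 of the 13824 genes had at least the 6 of ex, 38 at least the 5 of ds, and 167 (1.21%) at least the 3 of fj. By consensus regions, 444 genes (3.21%) had at least the 3 of fj and wts. The single regions of ft and kibra were ordinary for long genes, since 39.6% of the genes of at least 20 kb had at least 1. The 10 genes thus ranged from 0 regions, like most genes, to counts that 12 genes or fewer reached outside the histone cluster.

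**Figure D4:**
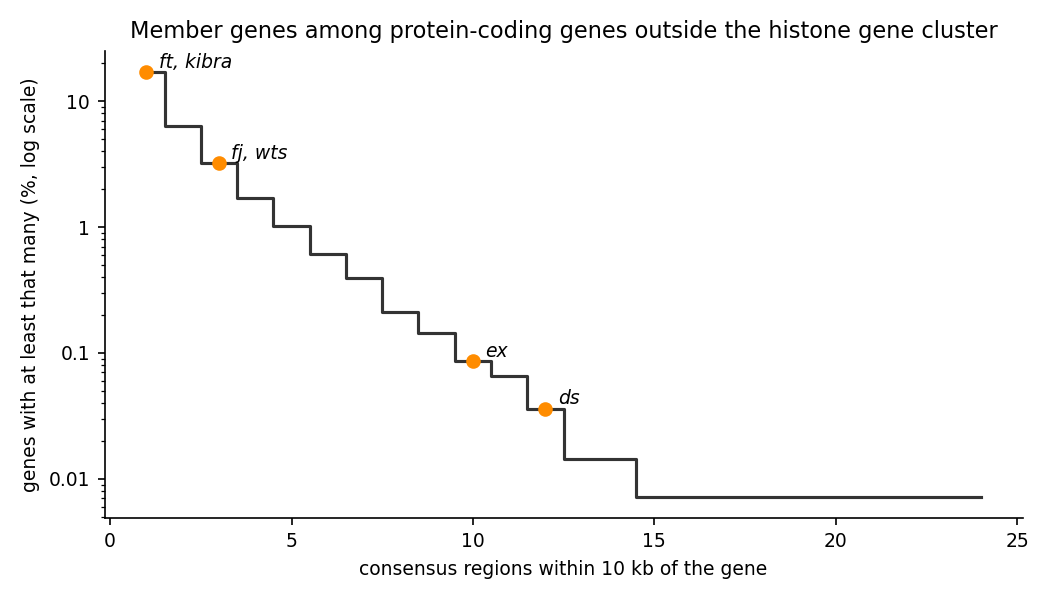
Share of protein-coding genes outside the histone gene cluster (log scale, %) with at least a given number of consensus regions within 10 kb, with the members that have a region marked. The genes ds and ex, with 12 and 10 regions, lie at 0.0362% and 0.0868%, far along the curve from ft and kibra at 17.0%.

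Chains of regions were present at ds and ex. With neighbours taken as at most 2 kb apart, a limit set after the values were seen, 18 of the 30 regions (60.0%) had a neighbour, close to the 49.2% of all 2171 consensus regions. They formed 5 chains, 3 at ds and 2 at ex, and none at the core genes. The chains inside ds and ex held 5 and 6 regions. Their spans were touched by 2, 5 and 5 peaks at ds and 4, 6 and 5 peaks at ex in replicates 1, 2 and 3. In replicate 3, the peak in ds from 670521 to 670666 overlapped no consensus region. Replicate 1 called the fewest peaks in both chains.

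The wider pathway was described with 35 further genes in 4 lists. Of the 8 genes of the Fat and Ds branch, 3 had a consensus region and 1 had a region in all 3 libraries, against 17.7% and 8.76% of all protein-coding genes. That gene was Gug, which codes for the transcriptional corepressor Atrophin, a protein that binds the Fat cytoplasmic domain. Gug had 3 regions in all 3 libraries, the strongest from 8460551 to 8460923 on 3L with folds of 6.17, 8.83 and 11.6. The genes kug (a second Fat-like cadherin), app, Fbxl7, lft and Zyx had none.

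Of the 13 Hippo inputs and kinase partners, 1 had a consensus region, msn, and none had a region in all 3 libraries, against 17.7% and 8.76% of all protein-coding genes. The adaptor gene sav and the kinase gene Tao, which act directly with Hippo, had no peak in any library, and neither did the apical determinant gene crb. The gene mats, for the Warts cofactor, had 1 peak in replicate 1 only. In all, 7 of the 13 had a peak in replicate 1, 1 in replicate 2 and 3 in replicate 3, against 28.9, 21.3 and 32.0% of all protein-coding genes, so replicate 1 called peaks at more of the list than the other 2 libraries. Among the members, hpo, Mer and yki likewise had no consensus region.

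Of the 6 nuclear partners of Yorkie, 5 had a consensus region and 3 had a region in all 3 libraries (hth, tsh and Tgi), against 17.7% and 8.76% of all protein-coding genes. The homeobox gene hth, whose product partners both Yorkie and Hox proteins, had 5 such regions, and its strongest had folds of 9.14, 8.74 and 13.4. The gene for the corepressor Tgi had 1, with folds of 6.35, 5.79 and 5.61, and sd, the gene of the DNA-binding partner of Yorkie, had 1 region in 2 libraries. Of the 8 common target genes, 5 had a region in all 3 libraries within 10 kb: Ser with 5, E2f1 with 3, dally with 2, and vn and Diap1 with 1 each. The vn region lay 6973 bp outside the gene. The strongest such regions at dally, Ser and tsh lay 1818, 106 and 2433 bp outside. Those at Diap1, E2f1, hth and Tgi overlapped the gene. The strongest at E2f1, a cell cycle regulator, had folds of 5.87, 9.64 and 13.3. The target genes CycE, Myc and the bantam microRNA gene mir-ban had no consensus region. Of the 8 target genes, 5 are at least 20 kb long, and 4 of these 5 had a region in all 3 libraries, against 22.5% of all genes of that length. The lists differ in gene length, with 2 of the 6 nuclear partners and 2 of the 13 Hippo inputs and kinase partners in that class, and differences between the lists were not tested. Over the 4 lists, 14 of 35 genes had a consensus region and 9 had one in all 3 libraries, against 17.7% and 8.76% of all protein-coding genes. Of the 35, 11 are at least 20 kb long. Of these, 8 had a consensus region and 6 had one in all 3 libraries, against 39.6% and 22.5% of all genes of that length. The gene mir-ban is not protein-coding, so the shares do not cover it.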

How the data were processed

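Ubx peaks were called with MACS2, per the labels' series design text. Trimmomatic 0.36, BWA and the build BDGP6 are named in the submitters' processing notes, without options. Each deposited peak list gives positions, a summit, a fold enrichment (a linear ratio), −log10 values of p and q, and a score that equals the −log10 q-value times 10 without its decimals, all made by the authors' peak caller. The lowest deposited −log10 q-value is 2.00, 2.04 and 2.01 in replicates 1, 2 and 3. No file gives counts, so depth is unknown, and a deeper library can call more sites. The deposited consensus list gives positions only; stretches covered by at least 2 libraries gave 2171 regions, all identical to it.

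Gene spans were read from NCBI RefSeq's Release 6 gene table, which has no strand, exons or UTRs. A genome sequence was not used here, so no motif was searched. A peak or region belonged to a gene when it shared at least 1 bp with the gene plus 10 kb on each side. Fold was ranked within each list as a percentile, and a region took the overlapping peak with the highest fold in each library. Overlaps were computed in Python 3.11.15 with pandas 2.3.3 and tested on simulated intervals. The members, lists and naming rule (all members, and the 4 strongest regions in all 3 libraries where a gene had more) were chosen with earlier results of these data known. No test over genes was made.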

Additional observations from a re-analysis of the deposited data

How the results depend on the processing

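The upstream part had more peaks, more consensus regions and a higher density than the core under each alternative run (flank, nearest gene, strongest 50% of each list, summit position, leaving out each replicate). The ratio of densities was 4.12 as reported, 1.62 for gene bodies only and 5.37 with 20 kb flanks. Consensus regions at the upstream genes numbered 13 for gene bodies only, and 14 to 20 when each replicate was left out, lowest without replicate 3 (0.580 to 0.829 per 10 kb); at the core genes they numbered 2 to 3 (0.131 to 0.196 per 10 kb), again lowest without replicate 3. Core density was 0.412 with 2 kb flanks, 0.569 for gene bodies and 0.158 with 20 kb flanks. Regions in all libraries at the upstream genes numbered 7 for gene bodies and 8 with the strongest 50% of each list, where the upstream median percentile was 71.4 by construction; mean upstream peaks were 14.3 for gene bodies. Alternatives added after the values were seen left out genes: upstream regions were 14 without ds, 16 without ex and 4 without both, those in all libraries 9, 8 and 3, and the density without both 0.368. The consensus counts of Mer, d, hpo and yki stayed at 0 throughout. Without replicate 3, the counts of 4 single genes moved by over 1.5 times, all downward: ds to 5, ex to 6, ft to 0 and wts to 1. The motif description was not run. No paired analysis was possible because only the haltere ChIP group had lists analysed here. Unknown depth limits statements on sites called in 1 library.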
